A study of Ovis aries with 60 samples.

Results

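The cytosines described here are all CG cytosines of sheep chromosome 24 for which the sperm methylation tables of F0, F1 and F2 list read counts. They number 2636 of 313527 listed CG cytosines in F0, 2456 of 294661 in F1 and 717 of 122453 in F2, of which 489 were listed in all 3 generations and 3318 in at least 1. The chromosome was chosen by its F0 values: many of its cytosines differed between the diets. The F0 diet comparison on it is therefore a description: cytosines called there are counted beside the share of all listed cytosines, and nothing is read from the p-values behind the calls. The name given to it, a chromosome with many F0 differences, fitted the counts over all 10 rams but not those without ram 11T, as set out with the F0 counts.

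Semen of 10 F0 Polypay rams was analysed by whole-genome bisulfite sequencing (WGBS), 5 fed a control diet and 5 fed that diet with a top-dressed encapsulated methionine supplement (0.22%, 1.5 g) from weaning until puberty. The rams came from twin pairs, with the twins placed in opposite groups, but the labels do not name the pairs. The 10 F1 samples are pools of semen DNA from sons of each F0 ram, 5 from treated and 5 from control sires, and the 20 F2 samples are individual rams, 2 descending from each F0 ram through an F1 son, so that 10 stand in each group. All dams were untreated Polypay ewes and all F1 and F2 animals received the control diet. Samples carry the number of the F0 sire with T for treatment or C for control (3T, 4C), and F2 rams carry their own number before it (ramF2_480.3T). Each pool hides the differences among its sons, and rams of 1 sire are not independent.

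In the sperm of mammals most CG cytosines are methylated, and the level at a position is carried forward when the DNA is copied. Bisulfite converts unmethylated cytosines so that they are read as thymine, while methylated cytosines are read as cytosine, and the share of reads with a cytosine is the methylation level. A position where the genome itself carries thymine on that strand is also read as unmethylated. The animals' own sequence was not analysed here, so that its part in any level was not tested. Methionine is the precursor of the methyl donor used by the enzymes that methylate DNA, which is the reason for asking whether the supplement changed sperm methylation.

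Chromosome 24 had the fewest listed cytosines of the 26 autosomes in each generation. In F0 they spanned 42.0 Mb at 62.7 listed cytosines per Mb, against a median of 110 per Mb over the other autosomes. The cytosines stood in clumps, with 84.0% of the F0 cytosines within 1 kb of another. They formed 1055 stretches when neighbours up to 1 kb apart were joined. Listed reads on the chromosome ran from 52359 to 84685 per F0 ram, 43589 to 78106 per F1 pool and 9316 to 26141 per F2 ram. The lowest total was that of F2 ramF2_400.24C, with a median coverage of 12 reads per cytosine, against 15 to 35 in the other F2 rams. Median coverage on chromosome 24 was 1.40 ± 1.58 reads lower than on the other autosomes in F0 (SD, n = 10, lower in 7), given without a test because F0 reads chose the chromosome. It was 1.60 ± 0.966 reads lower in F1 (SD, n = 10, two-sided exact sign-flip permutation p = 0.00391). The F2 difference of -0.70 reads (n = 20) did not pass 0.05 (sign-flip permutation p = 0.0524). At 20 reads, a level of 50% has a 95% Wilson interval of 29.9 to 70.1%, and at 10 reads one of 23.7 to 76.3%, counting error only.

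The F2 rams of sire 23T did not match it best. By the deviations of levels from the mean of all samples, ram 23T was more like the F2 family of 24C than its own, both on chromosome 24 (r = 0.465 against 0.288) and on the other autosomes (r = 0.361 against 0.0568). Ram 24C was most like its own F2 family (r = 0.275 and 0.303). On chromosome 24, rams 3T, 4C, 10C and 11T were also more like another F2 family than their own. Their r with their own family was 0.270, 0.0968, 0.00940 and 0.367. On the other autosomes 23T alone was more like another family. F2 counts are given with and without the families of 23T and 24C, and the F0 and F1 counts likewise.

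Differences of 20 points or more between the mean levels of the F0 groups were found at 117 of the 2636 cytosines (4.44%), against 2.4% of all listed F0 cytosines. This share was the highest of the 26 autosomes, the others running from 1.30% on chromosome 10 to 3.30% on chromosome 19. The treatment group was higher at 51 of them (1.93%, against 1.03% of all listed) and lower at 66 (2.5%, against 1.37%). The values just inside the limit were -20.1 and 20.3 points and those just outside were -20.0 and 19.9 points, with 89 more cytosines between 15 and 20 points. Differentially methylated cytosines (DMCs), with a difference of at least 20 points in the summed reads and an adjusted p of at most 0.01 in a likelihood-ratio test on summed reads (Benjamini-Hochberg), numbered 94 (3.57%, against 1.82% of all listed), also the highest share of an autosome. Of these, 37 were higher in the treatment group (1.40%, against 0.77%) and 57 were lower (2.16%, against 1.05%). That test counts reads and not rams. With rams as units, limma called none of them, as it called none of the 313527 listed cytosines. On chromosome 24, 28 cytosines (1.06%, against 0.588% of all listed) had both a difference of 20 points and an unadjusted p under 0.05. With consecutive ram numbers as a replicate block there were 25 (0.948%, against 0.921% of all listed), a share near the background. The block raised the count over all listed cytosines from 1845 to 2888, so that these shares also depend on how well it fits. They rest on the F0 levels that chose the chromosome, and nothing is read from them.

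The F0 groups did not overlap at 9 cytosines of chromosome 24 (0.341%), against 0.575% of all listed, the lowest share of the 26 autosomes. Of the 94 DMCs, 3 were among the 9 (3.19%, against 2.21% of the F0 DMCs on the other autosomes). At the other DMCs the levels of the groups overlapped. At 81 of the 94 (86.2%) some ram had a level of 10% or less and some other ram one of 50% or more, against 68.1% of the F0 DMCs on the other autosomes. Among all listed cytosines the same held for 12% on chromosome 24, the highest of the 26 autosomes, and for a median of 8.57% on the others.

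**Figure D1:**
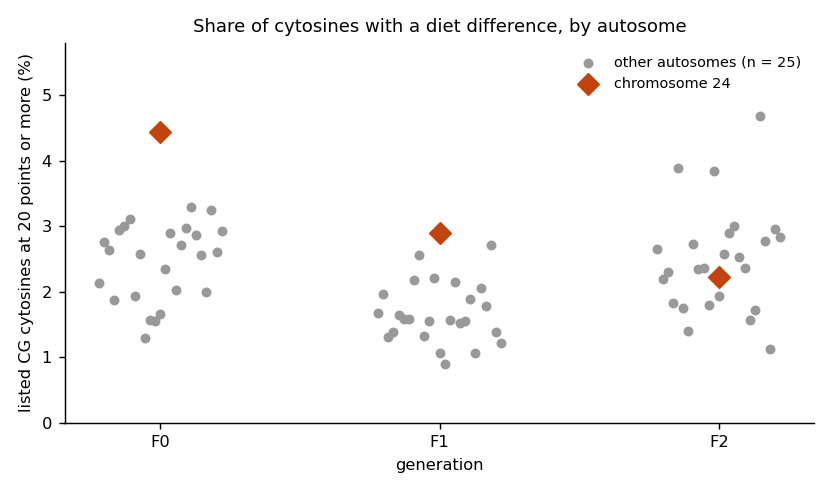
Share of listed CG cytosines with a difference of 20 points or more between the treatment and control means (y axis, percent), for each generation (x axis), with 1 point per autosome. Chromosome 24 (diamond) lies above all 25 other autosomes in F0 (4.44%) and F1 (2.89%) and among them in F2 (2.23%).

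One treated ram, 11T, took the largest part in the F0 differences. At the 66 cytosines where the treatment group was lower, ram 11T had a median level of 0% and was at 50% or less at 56 of them, and 3T was at 50% or less at 46. The other treated rams were at 50% or less at 34 to 36, and the control rams at 9 to 26. At the 51 cytosines where the treatment group was higher, ram 12C was at 50% or less at 47 and ram 6C at 41, while 11T was so at 2. Without 11T, 99 cytosines differed by 20 points (3.76%, 7th of the 26 autosomes) and 65 were DMCs (2.47%, 13th), against 3.27% and 2.27% on the other autosomes. Without any other single ram the chromosome kept the highest or second highest share, with 105 to 166 cytosines at 20 points. Without 23T the DMCs numbered 143 in place of 94 (5.42%, against 2.05% on the other autosomes), and without both 23T and 24C there were 160 cytosines at 20 points (6.07%, against 3.01% on the other autosomes) and 125 DMCs (4.74%, against 2.08%), again the highest shares of an autosome.

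The F0 differences lay in 29 of the 43 windows of 1 Mb that held listed cytosines. The window from 31 to 32 Mb held most, 12 of 115 cytosines (10.4%), with the treatment group lower at 10. The window from 29 to 30 Mb held 9 of 144 with 7 lower, and the window from 23 to 24 Mb held 8 of 107 with 3 lower. These windows together held 24.8% of the 117, and without them the share was 3.88%. Of the 20 windows of the chromosome with at least 50 listed cytosines, 7 had a share of 5% or more, against 335 of 2268 windows (14.8%) on the other autosomes, where the highest share was 14.9%. Of the 101 stretches with a difference of 20 points, 12 held more than 1 (11.9%, against 9.23% on the other autosomes). The directions were mixed in 4 of these 12, against 118 of 609 on the other autosomes. The median stretch held 2 listed cytosines, so that many could show at most 1 or 2.

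**Figure D2:**
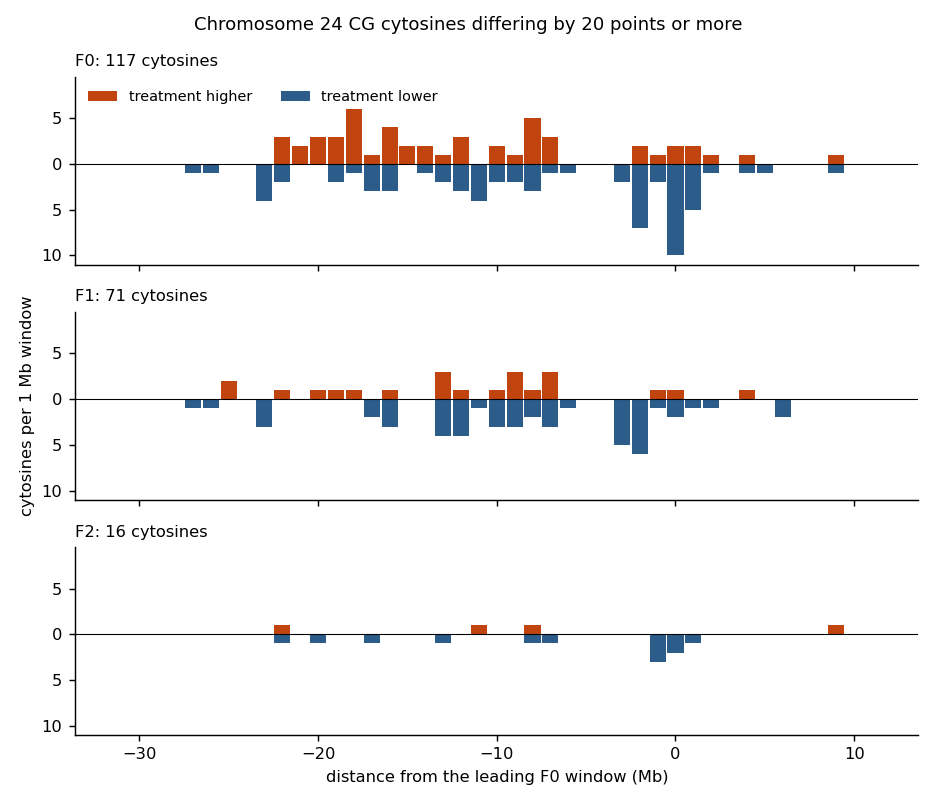
Number of chromosome 24 CG cytosines per 1 Mb window with a difference of 20 points or more (y axis, counts), by distance in Mb from the F0 window with the most (x axis), in F0, F1 and F2. Bars above 0 are cytosines higher in the treatment group and bars below 0 those lower, and the F0 window at distance 0 has 10 lower and 2 higher.

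In F1, 71 of the 2456 cytosines differed by 20 points or more (2.89%, against 1.66% of all listed). This was again the highest share of an autosome, ahead of 2.71% on chromosome 23. The direction was uneven. The treatment pools were lower at 49 cytosines (2%, against 0.916% of all listed), the highest share of an autosome, and higher at 22 (0.896%, against 0.741%), the 7th highest. There were 46 DMCs (1.87%, against 1% of all listed), with 33 lower (1.34%, against 0.542%) and 13 higher (0.529%, against 0.458%), and chromosome 23 alone had a higher share of DMCs. The F1 groups did not overlap at 20 cytosines (0.814%, against 0.67% of all listed). Of the 46 DMCs, 4 were among them (8.70%, against 7.80% of the F1 DMCs on the other autosomes). By limma on the pools no cytosine of the chromosome or of the whole table was called. On the chromosome, 30 (1.22%, against 0.834% of all listed) had a difference of 20 points and an unadjusted p under 0.05. With the replicate block there were 29 (1.18%, against 1.05% of all listed), near the background. The counts without each pool in turn ran from 57 to 89 cytosines at 20 points, and without the pools of both 23T and 24C there were 108 (4.40%, against 2.54% on the other autosomes) and 73 DMCs (2.97%, against 1.22%). The share fell to 7th of the 26 autosomes without pool 3T (57) or pool 11T (61) and to 5th without pool 6C (68) or 12C (60).

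The F1 window with most cytosines at 20 points was that from 18 to 19 Mb (7 of 97, 4 lower). It was followed by 3 windows with 6 each: from 24 to 25 Mb (of 106, 3 lower), from 22 to 23 Mb (of 108, 3 lower) and from 29 to 30 Mb (of 114). The last of these was the second in F0, and the treatment pools were lower at all 6.

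In F2, 16 of the 717 cytosines differed by 20 points or more (2.23%, against 2.03% of all listed), the 17th highest share of the 26 autosomes. The treatment rams were higher at 4 (0.558%, against 1.01%) and lower at 12 (1.67%, against 1.02%). The 19 DMCs (2.65%, against 2.19% of all listed) comprised 6 higher (0.837%, against 1.1%) and 13 lower (1.81%, against 1.09%). The groups overlapped at every listed cytosine of the chromosome, as at all but 0.000817% of the whole table. By limma none was called there or in the whole table, with 9 cytosines of the chromosome (1.26%, against 1.05%) at 20 points and an unadjusted p under 0.05. The leading window, from 30 to 31 Mb, held 3 of 18 cytosines with all 3 lower. The windows from 9 to 10, 23 to 24 and 31 to 32 Mb each held 2, with 1 in each direction in the former and both lower in the last, which was the leading F0 window. The F2 share lay near the background when all rams were taken. Without the 4 rams of sires 23 and 24 it was 4.18% (30 cytosines, 5th of the 26 autosomes, against 3.25% on the other autosomes), with 28 DMCs (3.91%, 7th, against 3.31%).

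The mean level of chromosome 24 was higher than that of the other autosomes in all 40 samples. The mean over cytosines was 78.0 ± 2.12% in treated and 79.4 ± 0.822% in control F0 rams (SD, n = 5 each), against 74.9 ± 1.17% and 76.2 ± 0.625% on the other autosomes. The excess was 3.17 ± 0.974 points in F0 (SD, n = 10), given without a test because F0 levels chose the chromosome. It was 2.86 ± 0.715 points in F1 (SD, n = 10, two-sided exact sign-flip permutation p = 0.00195, the smallest that 10 samples allow). In F2 it was 3.06 ± 0.894 points (SD, n = 20, sign-flip permutation p = 2e-05, the smallest that the resamples can give). This F2 test took the 20 rams as independent, although 2 descend from each sire, so that its p can be too small. These tests took the same positions in every sample, so that their p-values do not show whether the chromosome is unusual among autosomes. The same holds for the tests of coverage and of spread against the other autosomes. By mean level, chromosome 24 ranked 6th of the 26 autosomes in F0 and 7th in F1 and F2.

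The excess was smallest in F0 rams 23T and 24C, in their F1 pools and in the F2 descendants of 24C, but not in those of 23T. Ram 23T had the lowest F0 level, 74.7%, and an excess of 1.13 points. Ram 24C followed with 1.89, against 2.81 to 4.15 in the other 8 rams. Their pools had the lowest F1 values, 1.80 and 2.03 points, against 2.43 to 4.18 in the others. Among F2 rams the lowest values were those of the descendants of 24C, 1.43 and 1.66 points, whereas the descendants of 23T had 3.33 and 3.41. Without sires 23 and 24 the F0 excess was 3.58 points.

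**Figure D3:**
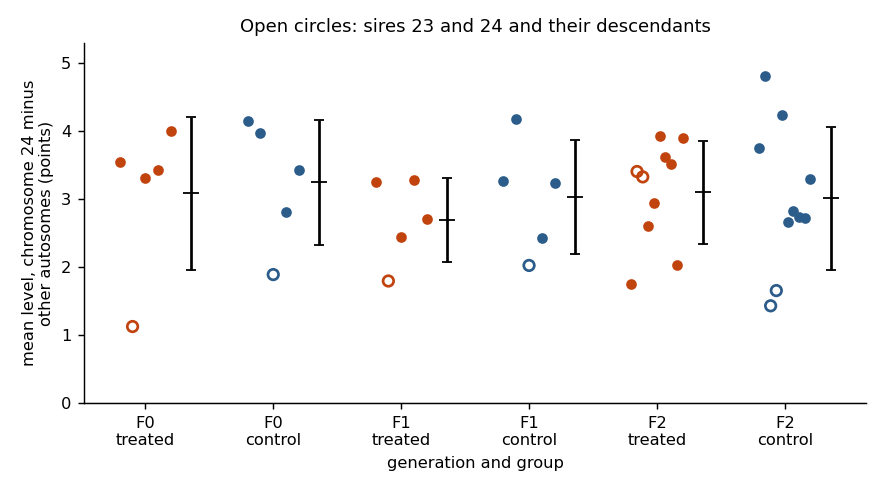
Mean methylation level over chromosome 24 CG cytosines minus that over the other autosomes (y axis, percentage points), by generation and group (x axis), with 1 circle per sample and the mean ± SD as bars. All 40 samples lie above 0, and open circles mark sires 23 and 24 and their descendants, among them the lowest 2 values of F0, F1 and F2.

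The difference between diets in mean level on the chromosome did not pass 0.05 over all samples and listed cytosines, but did under some alternatives in F1, in unpaired tests. In F1 the treatment pools stood at 77.4 ± 0.768% and the control pools at 78.6 ± 0.957% (SD, n = 5 each), a difference of -1.27 points (two-sided exact permutation p = 0.0556). This p was 0.0476 without pool 9T (-1.52 points), 6C (-1.50 points) or 12C (-1.48 points), by the same exact test, and 0.0238 over the cytosines listed in all generations (-1.21 points, exact). These tests ignored the likeness of consecutive sire numbers. Within such pairs, from 3T and 4C to 23T and 24C, the F1 differences were -1.45, -1.07, -1.69, 0.13 and -2.26 points. A paired sign-flip test on 5 pairs could not pass 0.05. In F2 the groups stood at 80.3 ± 1.93% and 80 ± 2.33% (SD, n = 10 each), a difference of 0.38 points (permutation p = 0.698), which turned to -1.03 points (permutation p = 0.194) without the descendants of sires 23 and 24. Relative to the other autosomes of the same samples, the differences were -0.33 points in F1 (exact permutation p = 0.508) and 0.09 points in F2 (permutation p = 0.836). The F0 differences, -1.40 points on chromosome 24 and -1.24 points on the other autosomes, are given without a test.

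The spread between samples of a group was large at few cytosines and small at most. The median SD over F0 cytosines was 6.99 points, the 19th of the 26 autosomes. The share of cytosines with an SD of 20 points or more was 13.9%, the second highest, and the mean within-group variance, 202 squared points, was the highest. Counting error at the given coverage accounted for 22.8% of that variance, the lowest share of the 26 autosomes, against a median of 28.6%. The mean absolute deviation of a ram from its group mean was 0.285 ± 0.71 points larger than on the other autosomes (SD, n = 10, larger in 6 of 10), and 2.38 points larger at cytosines with a mean level between 20 and 80%. These F0 values rest on the levels that chose the chromosome and were not tested. In F1 the difference was -0.0541 ± 0.443 points (SD, n = 10, two-sided exact sign-flip permutation p = 0.725), and 0.778 points at intermediate levels (exact p = 0.0527). In F2 samples deviated less on chromosome 24 than elsewhere, by -0.649 ± 0.36 points (SD, n = 20, permutation p = 2e-05, smaller in 18 of 20), and at intermediate levels this did not pass 0.05 (-0.297 points, permutation p = 0.19). These F2 tests also took rams of 1 sire as independent, and each deviation was from a group mean that includes the ram.

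Single rams stood apart by different amounts. In F0, 5.65 to 10.6% of the cytosines lay 30 points or more from the median of the other rams. The highest share was that of 23T, 279 cytosines, 175 of them below the median, against 7.56% for this ram on the other autosomes. Ram 4C followed with 8.61% (6.30% elsewhere), and 6C and 11T each had 7.93% (6.15% and 5.37% elsewhere). In F2, ramF2_400.24C had 15.6%, below its 19% on the other autosomes.

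Rams with consecutive numbers (3T and 4C, 5T and 6C and so on) resembled each other over the whole F0 table but hardly on chromosome 24. Over all 313527 cytosines the deviations of such rams from their group means correlated at r = 0.220 to 0.342 in the 5 pairs. By deviations from the mean of all rams, each of the 10 rams was most like the ram of the consecutive number. On chromosome 24 the correlations were -0.202 for 3T and 4C, -0.031 for 5T and 6C, 0.0747 for 9T and 10C, 0.149 for 11T and 12C and 0.297 for 23T and 24C. Their median ranked 24th of the 26 autosomes, with chromosomes 6 and 13 lower at 0.0668 and 0.0499. On chromosomes 6, 13 and 25, too, just 2 pairs were above 0.1. On chromosome 24, by deviations from the mean of all rams, 1 of the 10 rams was most like its consecutive number. This was the fewest on any of the 26 autosomes. The others had 2 to 10 such rams with a median of 8. Those deviations keep the difference between the diet groups, and consecutive rams stand in opposite groups. Choosing the chromosome for large F0 group differences thus tends to lower this count. By those deviations the correlation of 11T and 12C was -0.154. Consecutive rams were 50 points or more apart at 4.22% of the chromosome 24 cytosines, the highest share of an autosome, against a median of 2.37% on the others. Treated and control rams that were not consecutive were so at 4.48%, also the highest, against a median of 3.58%. These shares rest on the same F0 levels that chose the chromosome. Across the 26 autosomes, the share of cytosines at 20 points had r = -0.194 with the median correlation of consecutive rams, -0.409 with the number of rams most like their consecutive number and 0.622 with the share 50 points apart in rams that were not consecutive. Without chromosome 24 these were -0.024, -0.195 and 0.488. All autosomes share the same 10 rams, so that these correlations are descriptions. Whether consecutive numbers mark the twins cannot be told from the labels.

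**Figure D4:**
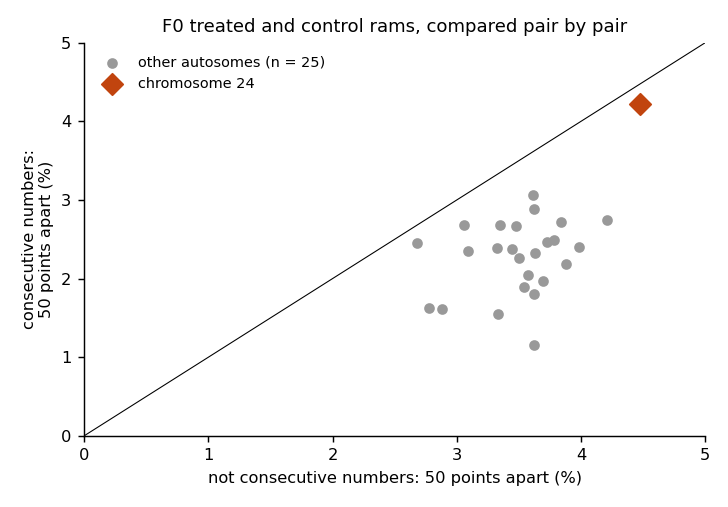
Share of F0 CG cytosines at which a treated and a control ram differed by 50 points or more (percent), for rams of consecutive numbers (y axis) and for the other treated and control rams (x axis), with 1 point per autosome and the line of equal shares. Chromosome 24 (diamond) is at 4.22 and 4.48%, the highest on both axes, and the consecutive rams have the lower share on every autosome.

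The methylation of an F0 ram on chromosome 24 recurred in the pool of its own sons. Over the 1895 cytosines listed in both generations, each of the 10 rams was most like its own pool among the 10 pools, with r = 0.340 to 0.698 and a median of 0.467, against 0.435 on the other autosomes. With the family means of F2 rams, over 561 cytosines, 5 of 10 F0 rams were most like their own family, with a median r of 0.282, against 9 of 10 rams and a median of 0.223 on the other autosomes, where 23T was the exception. These correlations are across cytosines of related animals.

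F0 DMCs of the chromosome mostly kept their direction in the later samples, which had not served to choose them. Of the 94, 74 were listed in F1, and 71 of these had a mean difference of the same sign. The 29 that were higher in treated rams had a median difference of 27.4 points in F0 and 13.2 points in F1, and the 45 lower ones had -30.3 and -18.4 points. Of the 20 listed in F2, 19 had the same sign, with medians of 15.5 points for 6 higher ones and -14.0 points for 14 lower ones. On the other autosomes 3850 of 4382 F0 DMCs kept their sign in F1 and 1002 of 1515 in F2. By limma on the F1 pools, 13 of the 74 (17.6%) had an unadjusted p under 0.05, against 4.82% of all listed F1 cytosines and 15.5% of F0 DMCs on the other autosomes. The F1 groups did not overlap at 2 of the 74 (2.70%), against 1.57% of F0 DMCs on the other autosomes. F1 pools and F2 rams descend from the same F0 rams, so that diet and descent cannot be told apart in these counts.

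F0 and F1 shared 20 DMCs on chromosome 24, which were 27% of the 74 F0 and 51.3% of the 39 F1 DMCs at cytosines listed in both. All 20 had the same direction, 15 of them lower in the treatment group. On the other autosomes the shares were 19% and 34.4%, with 830 of 834 in the same direction. F1 and F2 shared 4 DMCs (40% of 10 and 25% of 16) and F0 and F2 shared 8 (40% of 20 and 53.3% of 15), each with the same sign in both generations. Of these, 2 of the 4 and 6 of the 8 were lower in the treatment group. On the other autosomes F1 and F2 shared 26.1% and 12.6% of their DMCs, and F0 and F2 20.7% and 16.8%. The F0 and F2 DMCs shared on the other autosomes had the same direction at 244 of 313. At 25 points in place of 20, F0 and F1 shared 13.

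A total of 4 cytosines were DMCs in F0, F1 and F2, all with 1 direction throughout, of 489 listed in all generations. On the other autosomes there were 79 of 65223, of which 70 kept 1 direction. They are shown one by one because they are the cytosines on which the generations meet. Their positions are on Oar_rambouillet_v1.0. The levels of single F0 rams lay near 0, in the middle and near 100%. Of the 40 F0 values, 12 were at 5% or less, 9 between 30 and 60% and 12 at 90% or more. Of the 40 values of the F1 pools, 2 were at 5% or less and 5 at 90% or more.

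The cytosine at chr24:31175369 (plus strand) was lower in the treatment group. The study's annotation places it in an intron of AUTS2, a gene known for its part in the development of neurons, within a LINE element (L1MC). LINEs are transposable elements that DNA methylation keeps silent. In F0 the control rams 4C, 6C, 10C and 24C were at 100% and 12C at 91.7%. The treated rams 3T, 5T, 9T, 11T and 23T were at 47.1, 60.7, 100, 0 and 80.8%. The groups overlapped through ram 9T. The means were 57.7 ± 38.0% and 98.3 ± 3.73% (SD, n = 5 each), a difference of -40.6 points, or -26.2 points without 11T. In the F1 pools the treatment side had 42.3, 76.2, 75.7, 44.4 and 72.7% in the same order of sires, and the control side had 92.6 to 100%. All treated pools were lower than all control pools, and the difference was -35.6 points. The pool of 9T, unlike its sire, was below 100%. In F2 the treated rams had a lowest level of 0%, a median of 50% and a highest of 90.6%, and the control rams 33.3, 71.8 and 100%, with a difference of -25.5 points and overlapping groups, or -14.5 points without the rams of 5T. The cytosines listed within 1 kb of it, 2 in F0 and 3 in F1, differed by 6.96 points or less in size.

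The cytosine at chr24:23573024 (minus strand) was higher in the treatment group. It was annotated as intergenic, within a LINE element (L1_BT). In F0 all 5 control rams were at 0%, with 41 to 82 reads, which allows levels of up to 7.32% at 41 reads. The treated rams 3T, 5T, 9T, 11T and 23T were at 76.4, 36.2, 0, 65.9 and 37.3%. The groups met at 0% in ram 9T, and the difference was 43.2 points. In F1 the treated pools had 45.5, 44.1, 15.5, 39.7 and 54.7%. The control pools 4C, 6C, 10C, 12C and 24C had 16.4, 3.85, 19.6, 11.1 and 7.27%, so that the control pools had levels above 0 although their sires had none detected. The difference was 28.2 points. In F2 the treated rams had 0, 44.6 and 84.9% as lowest, median and highest, and the control rams 0, 18.1 and 84.8%, with a difference of 25.3 points and wide overlap. No other cytosine within 1 kb was listed.

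The cytosine at chr24:32615462 (minus strand) had the largest F0 difference of the chromosome, -50.5 points, and was annotated as intergenic in a LINE element (L1MD). The treated rams 3T, 5T, 9T, 11T and 23T were at 42.9, 53.3, 0, 1.23 and 39.2%. The control rams 6C, 10C, 12C and 24C were at 95.8 to 98.5% and ram 4C was at 0%, with 69 reads. Apart from 4C, each control ram was above each treated ram. In F1 the pool of 4C had 11.9%, the other control pools had 47.8 to 78.8%, and the treated pools had 37.8, 71.4, 0, 20.5 and 33.3%. The groups overlapped and the difference was -19.2 points, or -21.4 points in the summed reads by which it was called. It ranged from -11.1 points without pool 9T and -12.5 points without 6C to -28.9 points without 5T and -29.2 points without 4C. In F2 the levels were 0, 38.4 and 48.3% in treated and 0, 50 and 100% in control rams as lowest, median and highest, with a difference of -21.1 points, or -12.7 points without the rams of 12C. A second cytosine 504 bases away, at chr24:32614958 (minus strand), was listed in F0 alone. Its treated rams were at 55.6, 41.7, 55.0, 0 and 86.7% and its control rams at 91.7 to 100%, without overlap, at a difference of -47.3 points. Of the 7 other cytosines listed within 1 kb of 32615462 in F0, 3 differed by 20 points or more, that at 32614958 among them. Another was at -48.2 points in F0 and -26.7 points in F1, and was a DMC in both. The last was at -30.1 points in F0 and -3.75 points in F1.

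The cytosine at chr24:9377390 (plus strand) was higher in the treatment group and was annotated as intergenic, with no repeat. In F0 the treated rams were at 89.9, 43.2, 51.6, 81.2 and 78.8%. The control rams 4C, 6C, 10C, 12C and 24C were at 95.4, 0, 91.2, 0 and 47.7%. The group difference of 22.1 points thus rested on the levels of 0% in 6C and 12C. It was 10.4 points without 6C alone and 10.4 points without 12C alone, 34.2 points without 4C and 33.2 points without 10C. The pools of 6C and 12C were also the lowest of F1, at 17.9 and 15.6%, against 61.9 to 87.0% in the other 8 pools. The F1 difference was 28.7 points. In F2 the difference was the largest of the higher cytosines, 34 points, with levels of 45.1, 91.2 and 95.3% in treated and 0, 43.2 and 86.8% in control rams. At chr24:9378320 (plus strand), 930 bases away, the direction was opposite: -30.1 points in F0, -18.4 points in F1 and -38.4 points in F2, where 5 of the 10 treated rams were at 0% and the control rams ran from 39.4 to 91.7%.

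**Figure D5:**
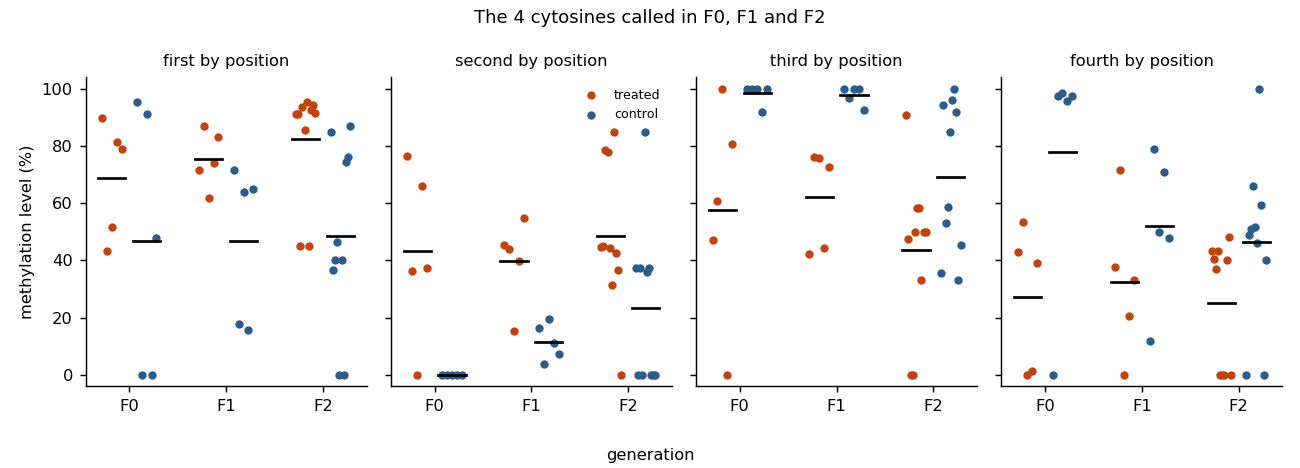
Methylation level in percent (y axis) of every sample at the 4 cytosines called in F0, F1 and F2, ordered by position, by generation (x axis) and group, with 1 point per ram or pool and black lines for group means. The treated mean is higher at the first and second and lower at the third (AUTS2 intron) and the last in each generation, and single rams lie near 0, 50 and 100%.

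Other cytosines were named by size of difference among DMCs without overlap. In F0 these were, besides the one at 32614958, chr24:15462942 (minus strand) and chr24:17142407 (plus strand), both lower in the treatment group, and no DMC higher in it was free of overlap. At 15462942 the treated rams were at 52.4, 42.1, 93.3, 0 and 92.9% and the control rams at 93.9 to 100%, a difference of -41.8 points, or -27.8 points without 11T. In F1 the difference was -18.4 points with overlap (two-sided exact permutation p = 0.238, adjusted p = 0.476 over 2 tests). At 17142407 the F0 difference of -22.0 points (-15.4 points without 11T) was followed by one of -1.27 points in F1 (exact permutation p = 0.929, adjusted p = 0.929).

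In F1 the cytosines lower in the treatment pools without overlap were, after the one in AUTS2, chr24:28764132 (minus strand) and chr24:22776416 (plus strand). At 28764132 the treated pools were at 6.67, 30, 0, 0 and 35.3% and the control pools at 75, 40, 50, 38.9 and 42.9%, a difference of -35.0 points, and in F0 the difference was -30.4 points with overlapping groups. At 22776416 the treated pools had 38.1 to 78.3% and the control pools 80.8 to 100%, a difference of -28.5 points, against -20.6 points in F0. The one higher cytosine, chr24:31815420 (plus strand), had 64.3, 41.7, 47.6, 36.8 and 55.0% in the treated and 6.67 to 33.3% in the control pools, a difference of 31.0 points, and was listed in F1 alone. The lowest coverage at these cytosines was 10 to 14 reads in F1.

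The F2 cytosines with the largest differences overlapped between groups. Besides 9378320, the treatment rams were lower at chr24:11547640 (plus strand, -37.3 points, listed in F2 alone) and chr24:31970680 (plus strand, -34.4 points). At 31970680 treated rams had a median of 0% and a highest of 64.3%, and control rams 0, 49.8 and 100% as lowest, median and highest. The same direction held in F0 (-30.9 points) and F1 (-28.4 points), with overlap in both. After 9377390 and 23573024, the third higher F2 cytosine was chr24:40514062 (plus strand, 24.3 points), with differences of 4.82 points in F0 and 11.9 points in F1. Leaving out any single ram, pool or F2 sire family reversed none of the 25 differences named as DMCs, but 7 of the 24 that were at 20 points or more in mean level then fell under 20 points in at least 1 case. At 31970680 the F0 difference was -18.0 points without 11T, and at 40514062 the F2 difference was 15.4 points without the rams of 9T.

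Sperm RNA of the 20 F2 rams was the other readout on the chromosome. Of the 28525 genes in the count table, 704 carried the name of a chromosome 24 gene in the RefSeq annotation of the assembly ARS-UI_Ramb_v3.0. The library totals ran from 805831 to 13137757 counts. All but 255 of the 704 genes passed the filter on low counts. None of these passed edgeR's quasi-likelihood test at an adjusted p of 0.05, as none of all 13577 genes did (0%). At an unadjusted p under 0.05 there were 3 (0.668%, against 0.766% of all tested), and DESeq2 also called 0 genes and had 3 (0.668%, against 1.28% of all tested). The median log2 fold change of these genes was -0.00041, against -0.05 over all genes tested. AUTS2 was at 6.35 to 154 CPM (counts scaled to the library total), median 30.1, in treated and 15.5 to 176, median 40.3, in control rams, a log2 fold change of -0.27 ± 0.40 (SE, edgeR adjusted p = 1.0), and the groups overlapped nearly wholly.

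Markers of sperm lie on this chromosome. PRM1, a protamine that packs sperm DNA, ran from 34.1 to 2589 CPM in treated and 12.5 to 2388 CPM in control rams. TNP2, a transition protein that precedes the protamines, ran from 6.85 to 673 and from 1.98 to 270 CPM, and PRM3 from 1.82 to 61.7 and from 0.913 to 78.7 CPM. ITGAM, an integrin of leukocytes, ran from 2.63 to 29.6 and from 1.24 to 45.9 CPM. Their log2 fold changes lay between -0.15 and 0.36, and none passed the test. The 14 sperm markers in the table summed to 211 to 11166 CPM in treated and 46.7 to 11699 CPM in control rams, the 8 leukocyte markers to at most 4537 CPM (median 784) in treated and 10787 CPM (median 518) in control rams, and the 5 squamous epithelium markers to 132 to 7171 and 84.9 to 7617 CPM. None of the members that passed the filter (14 sperm, 7 leukocyte and 3 squamous) passed the test, and no member in the table was at 0 in all rams. The cells had been treated with a somatic cell lysis buffer before extraction, and markers of other cells were still counted in these libraries. The part of other cells in the expression of the chromosome was not tested. In such bulk RNA, fewer cells of a type and less RNA per cell cannot be told apart.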

How the data were processed

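The authors used Bismark on trimmed WGBS reads, with Oar_rambouillet_v1.0 as the genome, discarded duplicate reads and deposited, per cytosine and sample, raw counts of covering and methylated reads (minimum 10 in every sample), strands apart. The deposited RNA counts per gene are raw. The 40 columns of unmethylated reads, redundant with the others, were not used, nor were the CHG and CHH tables. Levels are methylated over covering reads. DMCs followed the study's thresholds, with Benjamini-Hochberg adjustment over all listed CG cytosines (SciPy 1.17.1). limma 3.58.1 was run on levels, edgeR 4.0.16 (TMM, genes with 15 or more counts in over 10 rams) and DESeq2 1.42.0 on RNA counts. The likelihood-ratio test, limma and edgeR were tried on simulated data, but DESeq2 was not. The simulated methylation reads had 1 level per group and no differences between rams. They therefore do not show how often such differences give false calls. Permutation tests were two-sided, exact for 5 against 5 and with 100000 resamples for 10 against 10. Windows were 1 Mb.

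The chromosome, the named cytosines and the gene lists were chosen with earlier results of these data known. Named were all cytosines called as DMCs in every generation, per generation the 3 per direction with the largest difference among DMCs without overlap (F2: overlap allowed), the 3 leading windows, and genes holding a named cytosine, past the RNA test or on the marker lists. The naming rule's genes with most F0 DMCs were not determined, since no gene annotation of the build was used here beyond the study's own for single named cytosines. Consecutive ram numbers were checked as pairs: the deviations correlated above 0.1 in all 5 pairs over the F0 table and the F1 table. Over the F2 table just 1 pair of sire families passed 0.1, and the families of 23T and 24C were at r = -0.312. For chromosome 24 alone, 2 pairs passed 0.1 among F0 rams, 1 among F1 pools and 1 among F2 families. With this pairing as a replicate block, limma called 0 cytosines of chromosome 24 and of the whole table in each generation, as without it.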

Additional observations from a re-analysis of the deposited data

Results flagged for a closer look

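Samples that lay far from the rest of their group, by Dixon's criterion at 95%, were found in 8 of 88 groups examined, where chance flags about 1 in 20. In the F0 treatment group, ram 23T had the lowest excess of chromosome 24 over the other autosomes, 1.13 points against 3.31 in the nearest ram, and the largest mean absolute deviation from its group, 10.5 points against 7.73. F2 control ramF2_400.24C had 15.6% of its cytosines 30 points or more from the median of the other rams, against 10.0% in the nearest. This ram also had the lowest coverage.

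The remaining values are those of single cytosines. Control ram 4C was at 0% at chr24:32615462, against 95.8% in the nearest control ram. Control ram 12C was at 91.7% at chr24:31175369, where the other control rams were at 100%. This is 11 of 12 reads (95% Wilson interval 64.6 to 98.5%), a gap of 1 read, and with all others equal any gap is flagged. At chr24:17142407 the F1 pool of 5T was at 57.1%, against 92.0% in the nearest treated pool. Among F2 control rams, ramF2_475.10C was at 84.8% at chr24:23573024, against 37.5%, and ramF2_350.6C was at 97.1% at chr24:40514062, against 48.6%.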

How the results depend on the processing

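At a minimum coverage of 20 reads, fewer cytosines of chromosome 24 were tested: 487 in F0 with 21 at 20 points and 21 DMCs (4.31% each, against 2.03 and 2.08% on the other autosomes), 445 in F1 with 9 and 9 (2.02%, against 1.23 and 1.27%), and 19 in F2 with 1 and 1. F0 and F1 then shared 5 DMCs, and 13 at 25 points. At 25 points F2 had 7 DMCs (0.976%, against 1.36%). Over the cytosines listed in F0, F1 and F2 (chosen after seeing the data, as was leaving out sires 23 and 24), 22 in F0 (4.50%, against 2.33%) and 14 in F1 (2.86%, against 1.58%) were at 20 points. limma called 0 DMCs in each generation, on the chromosome as in the whole table, without and with the replicate block of consecutive numbers. Leaving out a ram gave 65 to 143 F0 DMCs. Without sires 23 and 24, F1 had 108 cytosines at 20 points and 73 DMCs, and F2 had 30 at 20 points.

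The F1 difference in mean level was -1.21 points over shared cytosines (exact unpaired permutation p = 0.0238) and -1.52 to -0.91 without 1 pool, with an exact p of 0.0476 by the same unpaired test without 9T, 6C or 12C. Relative to the other autosomes it was 0.05 points at 20 reads in F1 and -0.58 points by summed reads in F2. The F2 difference was -1.03 points without sires 23 and 24. At intermediate levels, the mean absolute deviation on chromosome 24 exceeded that on the other autosomes by 2.38 points in F0 and 0.78 points in F1. In F2 this difference was -0.30 points at intermediate levels, and 0.19 points at 20 reads. The cause was not tested. Another 121 of 153 alternatives kept direction and call, or a count within 1.5 times. All 275 for named cytosines kept the direction, while 8 of 25 differences had a value under 20 points without 1 ram, pool or family. Counting error was 22.8, 43.8 and 21.8% of the variance within groups in F0, F1 and F2.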
